A study of Homo sapiens with 2 samples.

Results

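The zinc finger genes of human chromosome 19, those whose symbol is ZNF followed by a number, were followed in the transcriptomes of PLC cells, a line derived from human liver cancer. Members were the names of this form, with at most 1 letter after the number, that stood alone at a locus on chromosome 19 in both libraries. This gave 240 of the 24991 gene names shared by the libraries, and another 260 ZNF names lay on other chromosomes. The study sequenced RNA from PLC cells carrying the empty vector, genotype WT in the labels (EV), and from PLC cells over-expressing PRSS35 (PRSS35), a secreted protease that the study examined as a suppressor of liver cancer. Both were stable lines made from PLC cells by lentiviral infection and puromycin selection, and each was sequenced once, so no difference between them has a replicate check, no p-value is given, and the effect of PRSS35 cannot be told apart from any other difference between the 2 cultures. Whether a line was 1 clone or a pool was not given in the sources used here. The value for each gene is the FPKM deposited by the authors, the fragments of a gene relative to the length of its transcripts and to the mapped total of its library, with the lower and upper bounds that Cufflinks places around it. These bounds cover counting and assignment error within a library only.

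C2H2 zinc finger proteins bind DNA through tandem fingers, short folds in which a pair of cysteines and a pair of histidines hold a zinc ion. Most of those encoded on chromosome 19 arose by tandem duplication within primates and earlier mammals, lie in dense clusters, and carry a KRAB domain at the N terminus. The KRAB domain recruits the corepressor TRIM28, which brings the histone methyltransferase SETDB1 and HP1 proteins and silences chromatin, in many cases over transposable elements. Members without KRAB have more varied roles, some with a SCAN dimerization domain.

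The DNA of a finger shows how members of 1 fold differ in composition. One finger is shown for each of 7 members to which the values below return, read from the GRCh37 genome on the coding strand from the first cysteine codon through the linker to the next finger, 84 bases each. Capitals mark the codons of the 2 cysteines and the 2 histidines. The first 3 members had the highest FPKM of the family and no KRAB-like stretch.
ZNF358: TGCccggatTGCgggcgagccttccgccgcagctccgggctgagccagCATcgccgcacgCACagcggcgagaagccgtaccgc
ZNF787: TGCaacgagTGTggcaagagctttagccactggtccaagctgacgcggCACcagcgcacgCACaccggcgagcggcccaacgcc
ZNF444: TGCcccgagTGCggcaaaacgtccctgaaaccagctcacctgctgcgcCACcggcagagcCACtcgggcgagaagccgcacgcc
The other 4 carry a KRAB-like stretch and are rich in A and T.
ZNF544: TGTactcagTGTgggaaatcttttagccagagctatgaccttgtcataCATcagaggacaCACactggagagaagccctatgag
ZNF880: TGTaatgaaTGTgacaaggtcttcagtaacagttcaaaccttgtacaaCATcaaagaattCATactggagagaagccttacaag
ZNF43: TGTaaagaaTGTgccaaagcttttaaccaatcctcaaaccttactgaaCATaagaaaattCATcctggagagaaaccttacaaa
ZNF91: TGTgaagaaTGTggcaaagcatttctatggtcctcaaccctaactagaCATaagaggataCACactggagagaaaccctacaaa
These fingers lie at chr19:7584585-7584668 on the plus strand, chr19:56600256-56600339 on the minus strand, chr19:56671127-56671210 on the plus strand, chr19:58773116-58773199 on the plus strand, chr19:52887473-52887556 on the plus strand, chr19:21991894-21991977 on the minus strand and chr19:23544896-23544979 on the minus strand, all within coding exons. Their GC content was 73.8% in ZNF358, 66.7% in ZNF787 and 69.0% in ZNF444. It was 46.4% in ZNF544, 36.9% in ZNF880, 34.5% in ZNF43 and 41.7% in ZNF91. Over all fingers of a member, the median GC content was 59.8% in the 34 coding members without a KRAB-like stretch and 40.8% in the 196 with one.

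These features were computed from the GENCODE transcripts of 237 matched members, of which 230 had a coding transcript and 229 an intact reading frame for a finger count. Members held a median of 12 fingers of the pattern CxxC to HxxxH and its spacing variants, from 1 in ZNF428 to 36 in ZNF208. A KRAB-like stretch was found in 160 members with a first letter pattern and in 196, 85.2% of the coding members, with a broader one chosen after the first was seen to miss known KRAB genes. A SCAN-like stretch was found in ZNF444 and ZNF446. These are letter patterns, so a member without a match, by the broader pattern too, can still carry the domain. Of the names, 7 end in P, the mark of a pseudogene.

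Most of the family was weakly expressed in PLC cells. With expressed meaning a mean FPKM of at least 1 over the 2 libraries, 54 of the 240 members (22.5%) were expressed. The share was 40.5% over all names, 46.5% for ZNF names on other chromosomes and 49.96% for the other 1355 names on chromosome 19. The median of the mean FPKM was 0.319 for the members, 0.830 for ZNF names elsewhere and 0.927 for the other names of the chromosome. Over all names it was lower than for the members, at 0.187, with 9504 of the 24991 listed at 0 in both libraries. Among the members, 27 were listed at 0 in both libraries, 59 had a mean FPKM below 0.1, those 27 included, 127 lay between 0.1 and 1, and 15 reached 10. Over the 203 members above 0 in both libraries, the order of levels was much the same in EV and PRSS35 (Spearman correlation 0.88 across genes, which share libraries and are not independent replicates). The depth behind low values was small. The bounds of the expressed members implied a median of 161.0 fragments in EV and 161.5 in PRSS35, against 20.2 and 21.3 for the members under 1 FPKM that were above 0 in EV, so single values below 1 FPKM are imprecise.

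The chromosome held the members in 20 clusters, with a new cluster begun where the gap to the previous member exceeded 500 kb. The 8 clusters with 10 or more members held 216 of the 240. Within these 8 clusters, 45 of the members (20.8%) were expressed, and 34 of the 126 other names in the same intervals (27.0%) were. The medians had the opposite order, at 0.308 FPKM for the members and 0.016 for the other names. Listed at 0 in both libraries were 24 of the 216 members and 56 of the 126 other names. Levels differed between clusters. In the cluster from 52074531 to 54083523 on chromosome 19 of hg19 (the build of all locus coordinates given here, the same assembly as GRCh37), 3 of 40 members were expressed, the median FPKM was 0.0932 and 8 members were listed at 0 in both libraries. The neighbouring cluster from 55987699 to 57183123 had 10 of 15 members expressed and a median FPKM of 5.32. Only 6 of those 15 carry a KRAB-like stretch, against 36 of 40 in the former.

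The cluster from 11708235 to 12742795 had 2 of 24 members expressed, with a median FPKM of 0.223. The cluster from 44037340 to 45004575 had 4 of 23 and a median of 0.119, although it holds ZNF576 and ZNF428, which are among the 6 highest members. The widest cluster, 4.53 Mb from 19778962 to 24312769 near the centromere, is home to the ZNF91 and ZNF43 relatives and had 6 of 36 expressed with a median of 0.324. The cluster nearest the end of the long arm, from 57752053 to 59000900, was the largest, with 13 of 41 members expressed and a median of 0.591. ZNF536, a regulator of neuronal differentiation, ZNF541, a germ cell protein, and ZNF114 each stood alone in a cluster and were listed at 0 in both libraries.

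**Figure D1:**
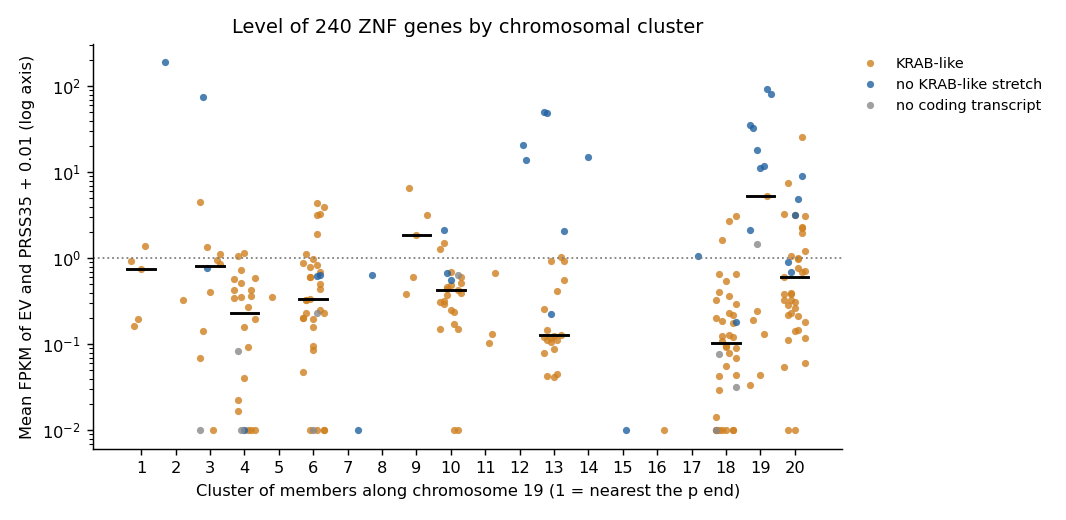
Each point is 1 of the 240 members, placed by its chromosomal cluster from the short to the long arm (x axis) and by the mean FPKM of EV and PRSS35 plus 0.01 on a log axis (y axis), coloured by the KRAB-like stretch. Black lines are medians of clusters with at least 5 members, the dotted line is 1 FPKM, and most KRAB-like members lie under it while 14 of the 15 members at 10 FPKM or more have no KRAB-like stretch.

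Members without a KRAB-like stretch made up most of the highly expressed ones. Of the 34, 21 were expressed (61.8%), the median FPKM was 2.67 and 14 reached 10 FPKM. Of the 196 with a KRAB-like stretch, 32 were expressed (16.3%), the median was 0.278 and only ZNF749 reached 10 FPKM. With the first, narrower pattern the shares were 26 of 70 and 27 of 160. The number of fingers alone separated levels less. Of 16 members with under 10 fingers and no KRAB-like stretch, 13 were expressed with a median of 16.6 FPKM, whereas of 40 with under 10 fingers and a KRAB-like stretch, 8 were expressed with a median of 0.237. Members with 10 to 14 fingers had a median of 0.317 and those with 15 or more 0.301.

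Levels also differed with base composition, which goes together with the KRAB-like stretch in this family. Of 18 members whose transcript is at least 60% GC, 17 were expressed with a median of 16.6 FPKM, and 17 of the 18 have no KRAB-like stretch. Of 208 members under 50% GC, 28 were expressed (13.5%) with a median of 0.258. The parts of GC content, the KRAB-like stretch and position in these levels were not tested. The promoters matched in RefSeq, 201 of the 240, were rich in CpG whatever the level. The ratio of observed to expected CG pairs in 300 bases around the start had a median of 0.785 in 50 expressed and 0.759 in 151 other members, and 78.6% of the members reached 0.6 against 48.9% of all 35116 promoters of the table.

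Near-identical copies make some values uncertain, since fragments from a shared stretch can be given to either gene. The share of a member's 50-base stretches found in another gene's transcripts had a median of 1.47% and was 0.06% in the median of the expressed members. It reached 20% in 8 members, of which ZNF443, whose copy is ZNF799, and ZNF324B, whose copy is ZNF324, were expressed. The highest share was 58.0%, in ZNF98 with ZNF492.

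The 15 members at 10 FPKM or more held 83.1% of the FPKM summed over the family in EV and 80.3% in PRSS35. They had a median of 7 fingers and a median transcript GC content of 64.9%. ZNF358, a GC-rich gene at 7581004 to 7585911 with 9 fingers, was the highest and alone gave 22.4% of the family's total in EV and 20.3% of it in PRSS35. Its FPKM was 215.0 (bounds 205.2 to 224.8) in EV and 164.2 (bounds 156.5 to 171.8) in PRSS35, a log2 change of -0.39. The bounds did not overlap. ZNF787, at 56598729 to 56632742, had 104.3 (bounds 99.2 to 109.4) in EV and 83.2 (bounds 80.7 to 85.7) in PRSS35. ZNF444, a SCAN-containing member, had 89.1 in EV and 72.2 in PRSS35. In both, EV was the higher library with bounds apart.

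ZNF414, with 3 fingers, had an FPKM of 92.5 (bounds 87.6 to 97.4) in EV and 57.8 (bounds 54.5 to 61.0) in PRSS35, a log2 change of -0.67. ZNF576 had 56.8 in EV and 43.7 in PRSS35. ZNF628, with 16 fingers, had 42.3 (bounds 40.6 to 44.1) and 27.9 (bounds 26.3 to 29.4), and the long finger array of 20 in ZNF865 went with 14.96 (bounds 13.98 to 15.9) and 7.76 (bounds 7.30 to 8.22), a log2 change of -0.87. EV was the higher library for each of these 4, with bounds apart. ZNF428 went the other way. This protein has a single finger, and its FPKM was 38.1 (bounds 35.5 to 40.7) in EV and 59.2 (bounds 54.7 to 63.8) in PRSS35, a log2 change of 0.62. It was the only one of the 15 with bounds apart and the higher value in PRSS35.

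The highest KRAB-like member was ZNF749, rank 9 in the family, at 57946688 to 57957191. Its FPKM was 23.3 (bounds 17.0 to 29.5) in EV and 28.9 (bounds 21.0 to 36.7) in PRSS35, and the bounds overlapped. They imply only 55.2 and 54.1 fragments. ZNF574, next in rank with 22.5 in EV and 18.6 in PRSS35, had 1350 and 1668 implied fragments, so the level of ZNF749 is much the less certain of the pair.

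**Figure D2:**
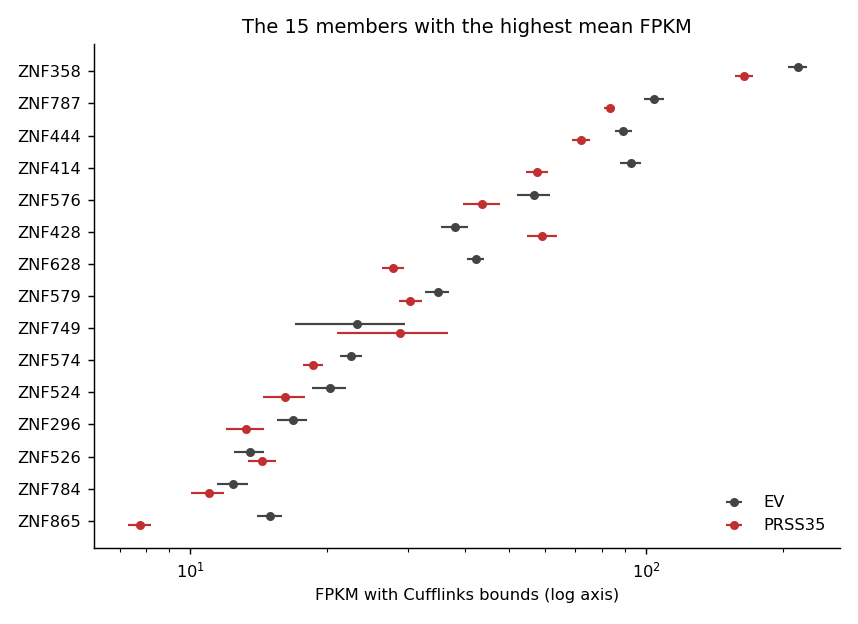
FPKM on a log axis (x axis) of the 15 members with the highest mean FPKM (y axis) in EV and PRSS35, 1 library each, where points are the deposited FPKM and bars the Cufflinks bounds. In 12 of the 15 the PRSS35 value is the lower as deposited, and ZNF428 is the member clearly higher in PRSS35. After division of each library by its total FPKM over all loci, unnamed ones included, 1 of the 15 is lower.

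By the Cufflinks bounds, fewer of the expressed members were higher in PRSS35 than among all expressed names and more were lower, both as deposited and after each library was divided by its total FPKM over all loci. By the 2-fold rule the members' shares rest on 5 genes. Changes are log2((PRSS35 + 1) / (EV + 1)) of FPKM, a scale that understates changes of low genes. Past 2-fold, 2 of the 54 expressed members were higher in PRSS35 and 3 were lower, where 1.89% of all 10133 expressed names were higher and 1.84% lower. Of the 10133, 141 were listed at 0 in 1 library, which puts an expressed name past 2-fold, while no expressed member was. The 2 sides are thus not quite alike. The bounds were apart with PRSS35 higher in 5 members (9.26%), where 24.7% of all expressed names were, and with PRSS35 lower in 16 members (29.6%), where 14.3% were. In the other 33 members the bounds overlapped. The median log2 change was -0.06 over the members and 0.06 over all expressed names. It was -0.03 for ZNF names on other chromosomes and -0.03 for other names on chromosome 19. Bounds were apart and higher in 18 and lower in 21 of the 121 expressed ZNF names elsewhere. For the 677 expressed other names on chromosome 19 these counts were 112 and 184. Both groups thus also had fewer higher and more lower than all expressed names, so this direction was not particular to the members.

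One of the scalings tried turned the sign of these changes. Summed over all loci, FPKM was higher in EV by a log2 ratio of 0.71. Loci without a gene name held 65.3% of that sum in EV and 44.9% in PRSS35, and over the names in both libraries the log2 ratio was 0.046. With each library divided by its sum over all loci, which is what division by the sum means below, the median log2 change was 0.69 over all expressed names and 0.48 over the members, with bounds apart and higher in 34 members (63.0%, against 87.8% of all expressed names) and lower in 4 (7.41%, against 1.76%). The 2-fold counts were then 7 members higher and 3 lower, and 1196 names higher and 108 lower in place of 192 and 186. Relative to the median of all expressed names, the members lay at -0.12 as deposited, -0.21 with division by the sum, -0.13 with division by the sum over the shared names alone and -0.11 with upper quartile scaling. Without that centring, the median of the members was -0.03 with division by the sum over the shared names and -0.11 with upper quartile or median ratio scaling, so these 3 kept the sign of the deposited values. Each of these scalings multiplies 1 library by a single number. A change relative to the median of all expressed names can therefore move only through the pseudocount, so its agreement between scalings is no separate check. Changes below are as deposited unless they are said to be relative to that median.

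Members without a KRAB-like stretch lay lower than those with one. Relative to all expressed names, the median of these 21 was -0.33 as deposited and -0.29 with division by the sum. The 32 KRAB-like members had a median of 0.04 as deposited and -0.10 with division by the sum. This change of sign comes with the pseudocount, which damps a scaling more at low values. Their median level was 2.25 FPKM, against 9.87 for all expressed names. As deposited, bounds were apart and lower in 12 of the 21 and higher in 1. Of the 32, they were apart and lower in 4 and higher in 4. Among all expressed names 14.3% were lower and 24.7% higher. With division by the sum, 1 of the 21 was lower (4.76%) and 15 were higher (71.4%). Of the 32, 3 were then lower (9.4%) and 18 higher (56.25%). Both higher shares lay under that of all expressed names, of which 1.76% were then lower and 87.8% higher. Such shares differ with level. As deposited, bounds were apart and higher in 995 and lower in 411 of the 5091 names between 1 and 10 FPKM. At 10 FPKM or more they were so in 1506 and 1039 of 5042. The shares of all expressed names are thus not matched in level to those of the 32. The 15 highest members had a relative median of -0.37 as deposited and -0.31 with division by the sum. As deposited, 12 of the 15 lay below the median of all expressed names. This count was the same under the other scalings, which was all but fixed in advance, since each multiplies 1 library by a single number.

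GC content moved with the change too. It was taken from the principal coding transcript for members and from the longest transcript of any kind for the wider groups of names. The 2 sides set beside each other here are thus not measured alike. The log2 change had a Spearman correlation of -0.43 with transcript GC over the 54 expressed members, and of -0.11 over 8967 expressed names with a matched transcript, both across genes that share the 2 libraries. The 17 expressed members of at least 60% GC had a median log2 change of -0.30 as deposited (-0.36 relative to all expressed names), and 15 of them were below 0, a direction that division by the sum turned for all but 1. All 1440 expressed names of that GC content had a median of -0.09, and the 314 of them that were other names on chromosome 19 had -0.08. At both high GC and a mean of at least 10 FPKM, the median was -0.31 for 12 members and -0.12 for 989 names as deposited. The change also moved with level, with a median of -0.31 for the 15 members at 10 FPKM or more and 0.07 for the 39 between 1 and 10. Over all names the medians were 0.05 at 10 FPKM or more and 0.08 between 1 and 10. The 39 members thus lay near all names of their level, and the 15 lay below those of theirs. The parts of GC content, level and the KRAB-like stretch were not tested, and they overlap in the same members.

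**Figure D3:**
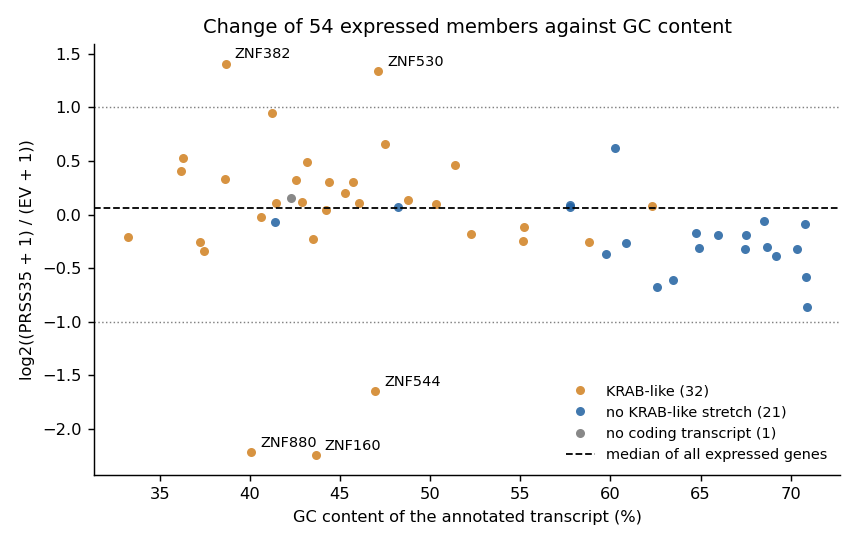
The log2 change in FPKM from EV to PRSS35 as deposited, with a pseudocount of 1 (y axis), against the GC content of the annotated transcript in % (x axis) for the 54 expressed members, coloured by the KRAB-like stretch. The dashed line is the median of all expressed genes at 0.06 and the dotted lines mark 2-fold. Members of at least 60% GC sit mostly below the dashed line, 15 of 17 below 0, and 1 of 17 is below 0 after division of each library by its total FPKM over all loci, unnamed ones included.

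By position, 2 clusters are given here, picked with their values known. The cluster from 55987699 to 57183123 had the highest median level among the 8 clusters of 10 or more members. As deposited, bounds were apart and lower in 6 of its 10 expressed members and higher in none. Among all expressed names 14.3% were lower and 24.7% higher. The median log2 change of this cluster was -0.27, and it holds ZNF787, ZNF444, ZNF628, ZNF579, ZNF524 and ZNF865. The cluster from 35168544 to 35454953 had the opposite pattern, with 3 of 5 members expressed and all 3 above 0, where 60.7% of all expressed names were. There, ZNF302 had an FPKM of 1.88 (bounds 1.30 to 2.46) in EV and 4.55 (bounds 2.96 to 6.14) in PRSS35, and ZNF792 had 1.41 (bounds 1.19 to 1.63) and 2.32 (bounds 2.03 to 2.61), in both with bounds apart. ZNF599, the highest of the cluster, had 5.96 in EV and 6.99 in PRSS35 with overlapping bounds. Division by the sum turned ZNF787, ZNF444, ZNF628 and ZNF579 above 0, left ZNF865 below it at -0.22 and left ZNF302 and ZNF599 above it.

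The 5 members past 2-fold all carry a KRAB-like stretch and all had bounds apart. ZNF160, a KRAB repressor at 53569867 to 53606687, had an FPKM of 5.10 (bounds 2.01 to 8.198) in EV and 0.288 (bounds 0.187 to 0.390) in PRSS35, a log2 change of -2.24. ZNF880, in the same cluster at 52873170 to 52889046, had 5.72 (bounds 3.95 to 7.48) and 0.448 (bounds 0.279 to 0.617), a log2 change of -2.21. They were 2 of the 3 expressed members of that cluster. ZNF544, at 58740060 to 58788860, had 11.99 (bounds 10.2 to 13.8) and 3.14 (bounds 2.69 to 3.59), a log2 change of -1.65. Higher in PRSS35 were ZNF382, a KRAB repressor known as a tumour suppressor in carcinomas, with 0.238 (bounds 0.128 to 0.349) and 2.29 (bounds 0.875 to 3.71), and ZNF530, with 0.674 (bounds 0.494 to 0.854) and 3.23 (bounds 1.96 to 4.50). Their log2 changes were 1.41 and 1.34. Division by the sum kept the sign and the 2-fold call of all 5.

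The fragments that the bounds imply are no counts, since the bounds also hold assignment error, and for these members they mostly did not follow the FPKM. The bounds of ZNF160 imply 10.9 fragments in EV and 32.2 in PRSS35, the library with the lower FPKM. For ZNF544 they imply 176 and 192, for ZNF382 18.7 and 10.5, and for ZNF530 56.1 and 25.9. In these 4 members the library with the higher FPKM had the fewer implied fragments, by this estimate. ZNF880 was the exception, with 42.0 in EV and 28.0 in PRSS35. FPKM divides fragments by the length of the transcripts that Cufflinks assigns them to, and at all 5 loci at least 1 library had transcripts that Cufflinks assembled itself in place of the annotated ones. This was so in both libraries for ZNF160, ZNF544 and ZNF382, in EV alone for ZNF880 and in PRSS35 alone for ZNF530. The part of assembly in these changes was not tested. Among the 37 expressed members with at least 50 implied fragments in both libraries, 0 were higher and 1 was lower past 2-fold, where 82 and 65 of 9242 names were. Of the 54 expressed members, 35 had an assembled locus in both libraries, 6 in EV only and 6 in PRSS35 only.

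**Figure D4:**
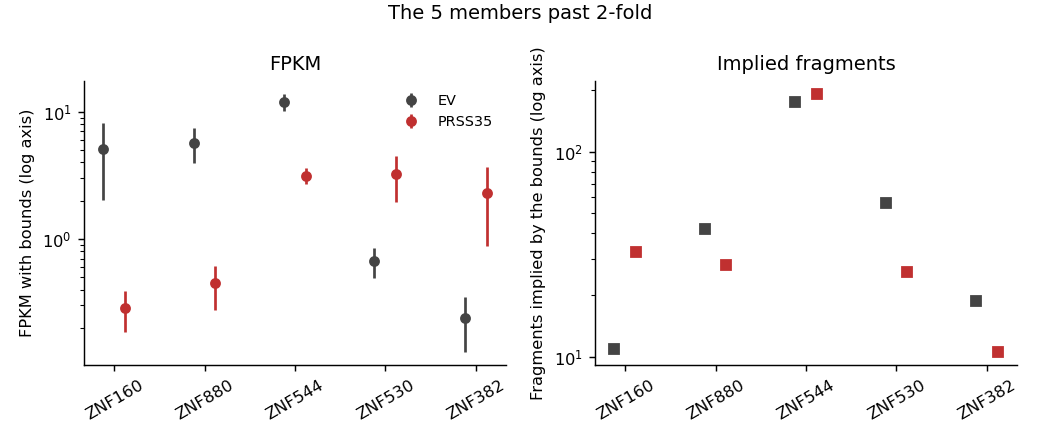
The 5 members past 2-fold, with FPKM and its Cufflinks bounds on a log axis (left) and the number of fragments implied by the bounds on a log axis (right), for EV and PRSS35 with 1 library each. FPKM and implied fragments go in opposite directions in every member but ZNF880, where EV is the higher in both.

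Members with known roles were mostly near or below 1 FPKM. ZNF274, which recruits SETDB1 to the ends of zinc finger genes, had 3.54 (bounds 3.06 to 4.02) in EV and 3.001 (bounds 2.59 to 3.41) in PRSS35. ZNF43, a KRAB repressor with 19 fingers, had 4.55 (bounds 3.91 to 5.18) and 3.37 (bounds 3.07 to 3.67), the one expressed member of its cluster of 36 with bounds apart, and its log2 change turned from -0.34 to 0.23 with division by the sum. ZNF146, which consists almost only of fingers, had 2.19 and 2.05. ZNF473, which acts in the processing of histone mRNA, had 0.996 and 1.10. The bounds of ZNF274, ZNF146 and ZNF473 overlapped.

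Low levels were found for ZNF91 and ZNF93, both known as repressors of retrotransposons. ZNF91, which binds SVA elements, had an FPKM of 0.244 (bounds 0.164 to 0.325) in EV and 0.386 (bounds 0 to 1.12) in PRSS35, and ZNF93, which binds L1 elements, was listed at 0 in both. ZNF257 had 0.813 in EV and 1.41 in PRSS35, ZNF85 0.647 and 0.722, ZNF331, an imprinted gene, 0.631 and 0.680, and ZNF90 0.256 and 0.183. Bounds overlapped in all 4. ZNF420, an inhibitor of p53, had 0.0707 and 0.212, ZNF224, a repressor of the aldolase A gene, had 0.101 and 0.115, ZNF175 had 0.0362 and 0.0814, and ZNF350, a partner of BRCA1, had 0.0616 and 0.0308. ZNF649 and ZNF208, the member with most fingers, were below 0.1 in both libraries. The bounds of these 6 overlapped as well. Of the 186 members under 1 FPKM in mean, 159 were above 0 in at least 1 library. Among these, bounds were apart and higher in PRSS35 in 11 (6.92%) and lower in 3 (1.89%), where 6.41% and 4.39% of all such names were.

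The machinery that KRAB proteins recruit was present. Of 38 listed names of the TRIM28 pathway, 33 stood alone at a locus in both libraries and all 33 were expressed, with a median log2 change of 0.08 as deposited, near that of all expressed names. Division by the sum moved this median to 0.75. TRIM28 itself was measured at a locus joined to a microRNA in EV, with 456 (bounds 437 to 476) in EV and 378 (bounds 362 to 394) in PRSS35. SETDB1 had 3.83 and 3.76, DNMT1, the maintenance DNA methyltransferase, 36.1 and 37.7, and the deacetylase HDAC1 94.4 and 111.3. In PRSS35, where it stood alone, TRIM28 was thus far above every member. Its bounds were apart with EV higher, but the EV value is that of the joined locus, so the 2 libraries are not compared alike. The bounds of SETDB1 and DNMT1 overlapped. Of the 33, 22 were above 0 and 11 below, where 60.7% of all expressed names were above 0. Bounds were apart and higher in 12 and lower in 5, where 24.7% and 14.3% of all expressed names were. FAM208A, which encodes the HUSH subunit TASOR, had 1.32 in EV and 5.04 in PRSS35 and was the one name past 2-fold higher. CBX3, encoding an HP1 protein, had 26.0 in EV and was listed at 0 in PRSS35, which can be a failed estimate. MPHOSPH8, another HUSH subunit, had 8.07 (bounds 7.18 to 8.96) and 6.26 (bounds 5.76 to 6.76).

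Some chromosome 19 zinc finger genes lie outside the 240 because their locus was joined with a neighbour. There were 8 such joined loci in EV and 9 in PRSS35. The highest were ZNF580 with ZNF581, at 246.0 in EV and 196.1 in PRSS35, and ZNF653 with ECSIT, at 164.7 and 122.1, whose FPKM cannot be divided between the genes. ZNF264 stood alone in EV at 0.989 and was joined with AURKC in PRSS35. The 13 other C2H2 names of the chromosome, of the ZFP, ZSCAN, ZIM and ZIK1 kinds, had 4 expressed members with a median log2 change of 0.38.

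The libraries matched their labels. PRSS35 had an FPKM of 0.643 in EV and 1836 in PRSS35. Of 13 liver markers 12 were expressed, and the 13 summed to 8678 in EV and 9871 in PRSS35. Most of this came from KRT18 (2781 in EV and 2315 in PRSS35), SERPINA1 (2528 and 4239) and KRT8 (2457 and 2344). Albumin was low at 4.05 and 5.21, as were TTR at 1.56 and 1.61 and FGB at 0.598 and 0.540. The 4 cholangiocyte markers were expressed, at a sum of 61.1 and 68.3, whereas none of 4 leukocyte and 4 endothelial markers and 1 of 5 stromal markers was. In bulk RNA, fewer cells expressing a gene and less RNA per cell cannot be told apart.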

How the data were processed

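RNA from 2 stable PLC lines, EV and PRSS35, was sequenced with 1 library each. Reads were aligned by the authors to hg19 and FPKM was estimated by them with Cufflinks. The processing notes list TopHat2 2.1.0, Cuffdiff 2.2.1, hg19 and dm6. The annotation release was not given in the sources used here. The deposited FPKM values and their lower and upper bounds were used as they stand. Deposited tables hold no counts, so no count model was fitted, and read depth per library was not given in the sources used here.

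Only loci on the main chromosomes were used, FPKM was summed per name, and names in both tables were kept. A mean FPKM of at least 1 was called expressed. To each FPKM 1 was added as a pseudocount before the log2 ratio was taken, and calls were made at 2-fold. Bounds were called apart where the interval of one library lay wholly above the other, among names with 1 locus in each library. The fragments implied by the bounds were taken as the inverse square of the relative standard error, itself the gap between the upper bound and FPKM, divided by 2 and by FPKM, a derived quantity and not a count. Locus starts were moved to count from 1. Transcripts, exons, fingers and shared 50-base stretches came from GENCODE v44lift37 on GRCh37, translated by script, and promoters from RefSeq. For members, GC content was that of the principal coding transcript, or of the longest transcript where none was coding. For the wider groups of names it was that of the longest transcript of any kind. The members and gene lists were chosen with earlier results of these data known, and the broader KRAB pattern after seeing values.

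The genes named were the 10 members with the highest mean FPKM, the 5 highest and 5 lowest log2 changes, every expressed member past 2-fold, the highest member of each cluster, and listed members of known function. Other members were named after their values were seen. Alternatives were pseudocounts of 0.1 and 5 FPKM, division by the sum over all loci, centring on the median, a 1.5-fold threshold, upper quartile scaling, use of only the highest locus of a name, no filter, and a mean of at least 5 FPKM. Restriction to annotated loci, restriction to at least 50 implied fragments, scaling by the median ratio, and division by the sum over the shared names were added after seeing the data. The calculations were tested on simulated data. Tables were handled with pandas 2.3.3 and numpy 2.4.6 in Python 3.11.15, correlations computed with scipy 1.17.1 and figures drawn with matplotlib 3.10.9.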

Additional observations from a re-analysis of the deposited data

How the results depend on the processing

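No paired analysis was possible because EV and PRSS35 were each sequenced once, and leaving out a replicate was not possible for the same reason. The 54 expressed members became 213 with no filter (names above 0 in neither library left out), 19 at a mean of at least 5 FPKM and 7 with annotated loci in both libraries. The 2 members higher past 2-fold became 4 with a pseudocount of 0.1 FPKM, 7 with division by the sum and 5 at 1.5-fold, and 0 with a pseudocount of 5 FPKM, at a mean of at least 5 FPKM, with annotated loci and with at least 50 implied fragments. The 3 lower became 6 at 1.5-fold, 1 with a pseudocount of 5 FPKM, at a mean of at least 5 FPKM and with at least 50 implied fragments, and 0 with annotated loci. Over all expressed names, the 192 higher and 186 lower became 91 and 90 with a pseudocount of 5 FPKM, 1196 and 108 with division by the sum, 438 and 360 at 1.5-fold, 106 and 95 at a mean of at least 5 FPKM, 17 and 16 with annotated loci, and 82 and 65 with at least 50 implied fragments. The median log2 change of the members, -0.06, was 0.48 with division by the sum, 0.041 with no filter, -0.31 at a mean of at least 5 FPKM and -0.18 with at least 50 implied fragments. That of the TRIM28 pathway, 0.08, was 0.75 with division by the sum. The stricter filters and the restrictions test fewer genes, and the cause of the other shifts was not tested. Division by the sum over the shared names alone kept each of these counts within 1.5 times and both medians on their side of 0. Of 44 named members, division by the sum changed the sign of a log2 change above 0.1 in size in 11, and a pseudocount of 5 FPKM took 4 below 2-fold. Low depth at a locus limits all values below 1 FPKM, and 17 expressed members had under 50 implied fragments in a library.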

Other observations

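Among the 159 members under 1 FPKM that were above 0 in a library, bounds were apart as deposited in 11 with PRSS35 higher (6.92%, against 6.41% of all such names) and in 3 with PRSS35 lower (1.89%, against 4.39%). The members given here were named after their values were seen, and their values are imprecise. ZNF606 had an FPKM of 0.289 (bounds 0.185 to 0.392) in EV and 1.06 (bounds 0.640 to 1.48) in PRSS35. ZNF573 and ZNF607, neighbours in the cluster that holds ZNF382, had 0.0919 and 0.249 in EV and 0.879 and 0.668 in PRSS35. ZNF600 had 0.476 (bounds 0.306 to 0.647) in EV and 0.0979 (bounds 0.0239 to 0.172) in PRSS35, and ZNF676 had 0.442 and 0.215. ZNF790 was listed at 0 in EV and had 0.324 in PRSS35, the largest value of a member under 1 FPKM whose other library was at 0. The bounds of ZNF573 imply 2.38 fragments in EV and 22.5 in PRSS35, and those of ZNF600 imply 31.2 and 7.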
